A study of Mus musculus with 4 samples.

Results

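The genes described here were 2 Notch receptors, Notch1 and Notch3, and 5 genes expressed in early T cell progenitors, Hes1, Dtx1, Nrarp, Erg and Mpzl2. They were selected by symbol from the gene table of the deposited matrices, and each of the 7 symbols matched a single entry among 32285 genes. Thymocytes of 4 mice on a C57BL/6 background had been profiled by droplet single-cell RNA sequencing with 3′ capture and unique molecular identifiers (UMIs). Both control mice carried floxed Tox4 alleles without Cre (Tox4;F/F), and both cKO mice carried the same alleles with Cre under the proximal Lck promoter (Tox4;F/F;Lck+), which deletes from the DN3 stage onwards. Libraries are given by genotype and replicate number, from control 1 to cKO 2. The labels give no age, and the study's methods describe young adult, gender-matched littermates. As the controls lacked Cre, the loss of Tox4 and the presence of the recombinase cannot be told apart.

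Notch receptors are single-pass membrane proteins that are cleaved after they bind Delta or Jagged ligands on a neighbouring cell. The freed intracellular part enters the nucleus, joins the DNA-binding protein RBPJ and activates target genes such as Hes1. In the thymus, ligand on the stroma commits progenitors to the T lineage and carries CD4-CD8- double negative (DN) cells through β-selection, after which signalling falls as cells become CD4+CD8+ double positive (DP).

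The 33414 cells kept of 57354 fell into 22 clusters, 12 of which were assigned to 6 αβ T cell stages by marker genes that excluded the 7 genes. These were DN-like cells (637), proliferating DP blasts (DPbla, 3471), DP cells rearranging the T cell receptor α chain (DPre, 16523), DP cells under selection (DPsel, 5428), and CD4 and CD8 single positive cells (CD4SP, 1792; CD8SP, 767). All of these names are marker-based and stand for DN-like, DPbla-like and so on. DPsel was not uniform in its coreceptor genes. Pooled Cd8a was 918 CPM in its cluster 3 (3012 cells) but 365 and 265 CPM in its clusters 5 (1682) and 13 (734). The second-best marker list of clusters 5 and 13 was CD4SP, so DPsel values mix these clusters. All 5 DN markers were detected in every DN sum, and Cd4 in DN cells was 23.8 to 62.3 UMIs per 1000000 UMIs of the summed cells (CPM), against 626 to 752 CPM in DPre cells. The matrices held between 42716798 and 62007453 UMIs, and any pair of libraries shared between 36 and 70 cell barcodes, at most 0.555% of the smaller library. Tox4 in all kept cells was 68.9 and 73.4 CPM in the controls and 54.9 and 62.2 CPM in the cKO libraries; the 3′ reads can lie beyond the deleted exons, so this level does not check the deletion. DN cells made up 1.26% and 1.30% of kept cells in the controls and 2.04% and 2.55% in the cKO libraries. In the DN cells of cKO 1, the 4 erythroid markers summed to 379 CPM, against 1.52 to 13.7 CPM in the other libraries.

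The promoters of the receptors and of Erg are shown because the receptors were the members that differed with genotype, and because Erg held the sole matches. RefSeq promoters were given for 5 of the 7 genes (7 windows, 3 of them of Erg), and the 250 bases before each start site were searched on both strands for the RBPJ core TGGGAA, its longer form GTGGGAA (which contains the core) and the E-box CAGNTG, the kind of site that E proteins bind. The sequences below are 5′ to 3′ on the strand of the gene, build GRCm38.p6, with matches in capitals. They lie at chr2:26503823-26504072 (Notch1), chr17:32166891-32167140 (Notch3) and chr16:95459349-95459598 (Erg), all on the minus strand.
Notch1: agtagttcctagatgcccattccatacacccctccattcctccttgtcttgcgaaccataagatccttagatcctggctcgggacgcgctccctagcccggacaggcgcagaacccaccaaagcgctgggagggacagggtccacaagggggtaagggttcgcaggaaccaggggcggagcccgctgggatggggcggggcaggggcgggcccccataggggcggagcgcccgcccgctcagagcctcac
Notch3: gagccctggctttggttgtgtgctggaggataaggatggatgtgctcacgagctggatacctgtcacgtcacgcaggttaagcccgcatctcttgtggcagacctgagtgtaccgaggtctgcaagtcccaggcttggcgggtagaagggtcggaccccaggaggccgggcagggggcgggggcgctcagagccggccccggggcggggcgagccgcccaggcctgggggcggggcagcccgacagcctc
Erg: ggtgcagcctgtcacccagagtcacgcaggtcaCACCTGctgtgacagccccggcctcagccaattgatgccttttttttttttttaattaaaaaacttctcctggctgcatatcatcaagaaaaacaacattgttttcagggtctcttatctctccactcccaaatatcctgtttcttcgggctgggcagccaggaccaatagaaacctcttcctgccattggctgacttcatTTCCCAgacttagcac
The Erg window held an RBPJ core in reverse orientation that began 16 bases before the start site and an E-box that began 217 bases before it. The other 6 windows held none of the 3 motifs. Of 32851 RefSeq promoter windows of the same length, 21.6% held TGGGAA, 5.42% held GTGGGAA and 44.8% held CAGNTG. A match is a run of letters and not a shown binding site.

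Of the 7 genes, 6 were far higher in DN cells than in DPre cells, Dtx1 came back in SP cells, and Nrarp stood apart with its highest level in the blasts. Because the stages were named from expression in the same cells, stage levels are given as a description without a test. Each level is the CPM of the summed cells of a stage in a library.

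Notch1 (chromosome 2, 26457903 to 26516663, minus strand, GRCm38, as all gene positions here), the receptor required for T cell commitment, was at 552 CPM and 518 CPM in the DN cells of control 1 and control 2, and at 455 CPM and 469 CPM in those of cKO 1 and cKO 2. Its level in DPbla cells was 98.4 and 89.6 CPM in the controls and 127 and 139 CPM in the cKO libraries. Every DN value lay above every value of a later stage, and no library fell under 40.4 CPM at any stage. From DPbla to DPre, CD4SP, CD8SP and DPsel the mean fell from 114 to 50.1 CPM, and the 4 library values of each neighbouring pair in that order overlapped. On the scale of log2(CPM + 1), DN exceeded DPre by 2.55 ± 0.62 (SD, n = 4 libraries).

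Notch3 (chromosome 17, 32120820 to 32166852, minus strand), a related receptor active in early thymocytes, was at 164, 119, 112 and 146 CPM in DN cells of control 1, control 2, cKO 1 and cKO 2. In DPre cells it was at 11 and 14.8 CPM in the controls and at 23.9 and 27.2 CPM in the cKO libraries. The gene then fell again, to between 2.40 and 4.68 CPM in DPsel cells, a step without overlap between the libraries of both stages. Notch3 was at 5.0 CPM or less in every SP sum. The DN excess over DPre was 2.82 ± 0.72 (SD, n = 4) on the log2(CPM + 1) scale.

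Hes1 (chromosome 16, 30064384 to 30067796, plus strand), a transcriptional repressor and direct Notch target, showed the steepest fall of the 7 genes from DN to DPre. DN cells held 293, 338, 221 and 303 CPM in control 1, control 2, cKO 1 and cKO 2. DPbla cells held 1.07, 2.45, 2.86 and 3.69 CPM in the same order. Later stages stayed at 4.56 CPM or less, and in CD8SP cells a single UMI was counted over all 4 libraries. DN exceeded DPre by 6.65 ± 0.80 (SD, n = 4) in log2(CPM + 1).

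Dtx1 (chromosome 5, 120680202 to 120711927, minus strand), which encodes the ubiquitin ligase Deltex that acts on Notch receptors, was high again in both SP stages. Its level in DN cells was 54.7, 50.2, 42.7 and 33.6 CPM in control 1, control 2, cKO 1 and cKO 2. It lay between 1.25 and 5.38 CPM in DPre cells and between 3.20 and 12.4 CPM in DPsel cells. CD4SP cells were back at 42.6, 32.4, 40.7 and 45.1 CPM, and CD8SP cells stood at 53.5, 54.8, 65.4 and 55.7 CPM. The library values of CD8SP and DN cells overlapped, as did those of DN and CD4SP cells, whereas no CD4SP value reached down to the DPsel values. Within DPsel, the pooled level was 1.81 CPM in cluster 3, 10.8 CPM in cluster 5 and 7.13 CPM in cluster 13, whose leading genes included Nr4a1.

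Nrarp (chromosome 2, 25180758 to 25183339, plus strand), an ankyrin-repeat protein that limits the Notch nuclear complex, was low throughout. DPbla cells had 4.29, 6.29, 6.57 and 4.38 CPM in control 1, control 2, cKO 1 and cKO 2, and DN cells 3.04, 1.83, 2.10 and 2.74 CPM. Every DPbla library was thus above every DN library, although the DN values rested on 14 UMIs in all. In DPre cells the level was between 0.43 and 1.43 CPM. DN exceeded DPre by 0.94 ± 0.44 (SD, n = 4) in log2(CPM + 1), the smallest such excess of the 7 genes.

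Erg (chromosome 16, 95359169 to 95586593, minus strand), an ETS transcription factor of blood progenitors, was nearly confined to DN cells among the 6 stages, at 22.8, 21.0, 16.1 and 21.9 CPM in control 1, control 2, cKO 1 and cKO 2. It gave 2, 5, 4, 1 and 0 UMIs in DPbla, DPre, DPsel, CD4SP and CD8SP cells, and the highest later level was 0.41 CPM, from 1 UMI in CD4SP cells of cKO 1. Mpzl2 (chromosome 9, 45039799 to 45054015, plus strand), an adhesion molecule of the immunoglobulin superfamily, was at 89.7, 84.0, 61.6 and 89.9 CPM in DN cells and at 5.07 CPM or less in every later sum. The DN excess over DPre was 4.25 ± 0.31 for Erg and 5.30 ± 0.21 for Mpzl2 (SD, n = 4, log2(CPM + 1)).

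**Figure D1:**
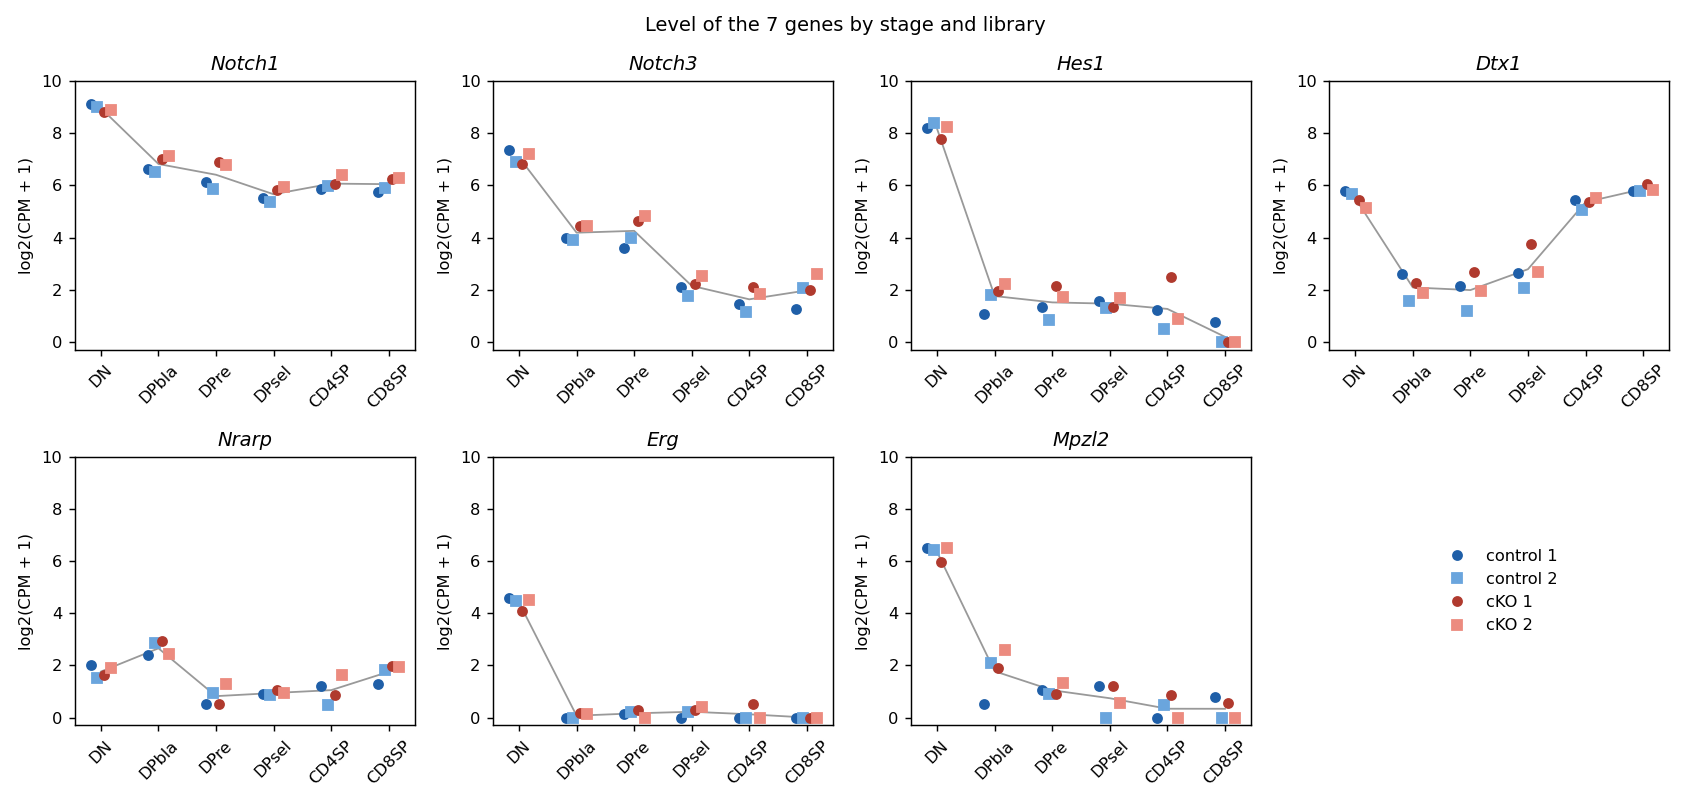
Level of each of the 7 genes, as log2(CPM + 1) of summed UMIs (vertical axis), in 6 thymocyte stages (horizontal axis); points are the 4 libraries, control in blue and cKO in red, and the grey line joins the means. Notch1, Notch3, Hes1, Erg and Mpzl2 are highest in DN, Dtx1 is high at both ends, and Nrarp peaks in DPbla with 4.29 to 6.57 CPM.

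For Notch1, the clusters inside a DP stage lay close to each other compared with their distance from the DN cluster. Notch1 was at 484 CPM in the single DN cluster (all libraries pooled), between 112 and 130 CPM in the 3 DPbla clusters, and between 68.3 and 110 CPM in the 3 DPre clusters. Among the 12 clusters of the 6 stages, pooled Hes1 and Mpzl2 were highest after the DN cluster in cluster 8 of the blasts. They stood at 5.10 and 4.53 CPM there. Hes1 in cluster 8 was 0.70 and 3.28 CPM in the controls and 4.94 and 7.21 CPM in the cKO libraries. Mpzl2 was 1.39 and 2.81 CPM against 4.65 and 6.04 CPM. In control 1, cluster 13 had more Hes1 (3.06 CPM), and in control 2, cluster 7 had more Mpzl2 (3.58 CPM). Of the cluster 8 cells, 145 and 226 were from the controls and 312 and 559 from the cKO libraries. The pooled Cd4 level of cluster 8, 125 CPM, was the lowest of the DPbla clusters, in which the others had 238 and 407 CPM.

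**Figure D2:**
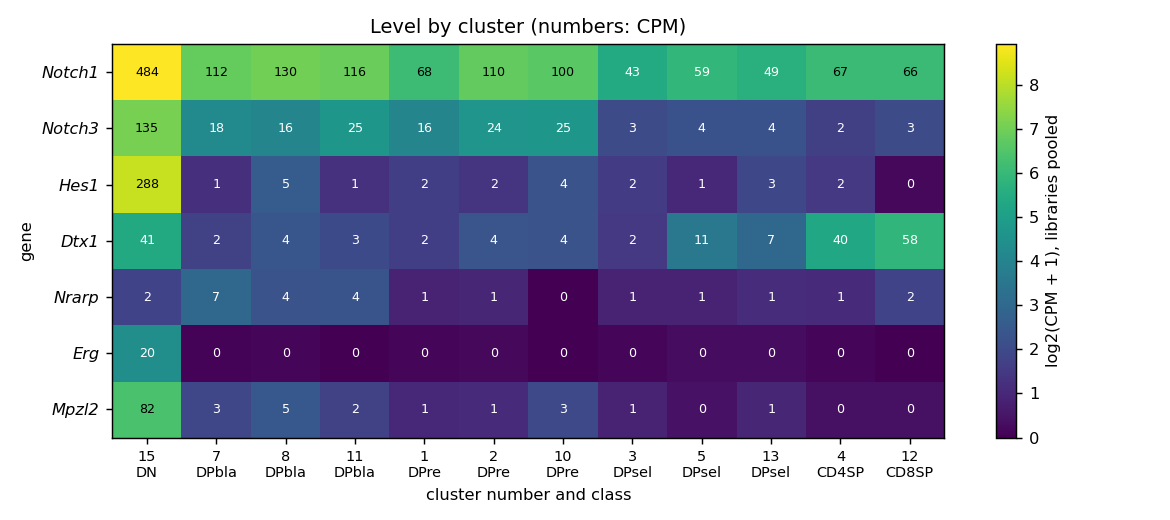
Level of the 7 genes (rows) in the 12 clusters of the 6 stages (columns, cluster number and stage), libraries pooled; colour is log2(CPM + 1) and the printed number is CPM. The DN cluster is the brightest column for 5 genes, Dtx1 is bright in the DN, CD4SP and CD8SP columns, and Nrarp reaches 7 CPM in cluster 7.

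Shares of cells with a UMI were compared after every cell was thinned to 1000 UMIs, which left out 563 shallower DPre cells, 533 of the mononuclear phagocyte system (MPS) and no DN cell. Notch1 was found in 38.5% of 637 DN cells (exact binomial 95% interval 34.7 to 42.4), 11.5% of 3468 DPbla cells (10.5 to 12.6) and 8.03% of 15960 DPre cells (7.61 to 8.46). As a background, the share was 3.69% (2.30 to 5.59) in 569 MPS cells and 5.26% (2.14 to 10.5) in 133 B cells. Of 80 erythroid cells, 2 had a UMI (0.304 to 8.74). The shares were 4.81% (4.25 to 5.41) in DPsel cells, 5.56% (4.54 to 6.72) in CD4SP cells and 6.78% (5.10 to 8.80) in CD8SP cells. Their intervals overlapped with that of each background. The interval of DPre cells lay above that of MPS cells and inside those of B and erythroid cells. The interval of DPbla cells lay above those of MPS and erythroid cells and touched the upper end of that of B cells. By detection with the 4 libraries pooled, Notch1 in the SP stages and DPsel cannot be told from background. In pooled DPre cells it could be told from MPS cells but not from B or erythroid cells. In pooled DPbla cells it could not be told from B cells. Within single libraries, the DPre interval lay above that of MPS cells in control 2 and cKO 1. The DPre and MPS intervals overlapped in control 1 and cKO 2. Without thinning the Notch1 shares were 91.8% in DN, 18.6% in DPre and 5.90% in MPS cells, at median depths of 8608, 2589 and 1026 UMIs. Intervals cover counting error only. By level, Notch1 was at 24.2 to 56.4 CPM in MPS, 24.8 to 48.5 CPM in B and 0 to 12.2 CPM in erythroid cells. These values rested on 70, 25 and 4 UMIs. Every DPbla, DPre and CD4SP library lay above them, from 89.6, 56.5 and 57.0 CPM upwards. CD8SP cells (52.8 to 77.9 CPM) overlapped with MPS cells, and DPsel cells (40.4 to 59.7 CPM) with MPS and B cells. MPS cells also held 632 to 1577 CPM of the coreceptor gene Cd8b1.

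For Hes1 the thinned share was 23.1% in DN cells (19.9 to 26.5), and in each of the 5 later stages it was 0.231% or less, below the 1.05% of MPS cells (0.388 to 2.28). The Hes1 levels of the later stages are therefore read as background. Notch3 was found in 14.0% of DN cells, 1.79% of DPbla cells and 1.83% of DPre cells (1.63 to 2.05), beside 1.41% of MPS cells (0.609 to 2.75), and these DP shares cannot be told from background by detection. Dtx1 was found in 5.18% of DN (3.59 to 7.20), 3.82% of CD4SP (2.98 to 4.81) and 4.56% of CD8SP cells (3.20 to 6.29), while 0 of 569 MPS cells had a UMI (0 to 0.646). In DN cells Mpzl2 was found in 8.48%, Erg in 1.57% and Nrarp in 0.314%, and the unthinned shares of the 7 genes in DN cells ran from 2.2% for Nrarp to 91.8% for Notch1.

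**Figure D3:**
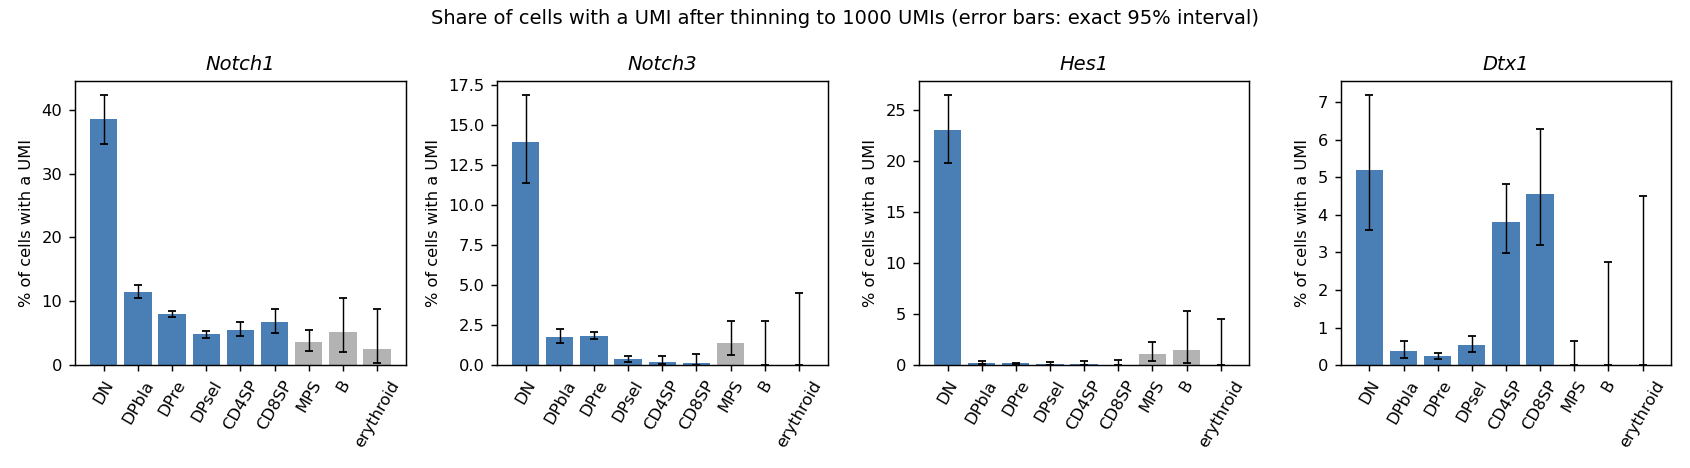
Percent of cells with at least 1 UMI of Notch1, Notch3, Hes1 and Dtx1 after thinning to 1000 UMIs per cell (vertical axis, scaled per panel), in the 6 stages (blue) and in MPS, B and erythroid cells (grey, background); bars pool the 4 libraries and error bars are exact binomial 95% intervals. DN cells stand highest in each panel, and Dtx1 has a second group of high bars in CD4SP and CD8SP.

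DN cells often carried several of these transcripts at once. At 1000 UMIs, between 18.3% and 27.7% of DN cells in a library had UMIs of 2 or more of the 7 genes, compared with 0.200% to 0.569% of DPbla cells. Splitting the DN cells by a thinned UMI of Il2ra, the CD25 chain that marks the DN2 and DN3 stages, Hes1 was higher in the 198 cells with Il2ra than in the 439 without in 4 of 4 libraries (pooled 449 and 269 CPM). Dtx1 (106 and 29.6 CPM) and Mpzl2 (152 and 68.3 CPM) differed the same way in 4 of 4 libraries, and Notch1 (702 and 465 CPM) and Notch3 (258 and 123 CPM) in 3 of 4. The Dtx1 values rested on 21 and 13 thinned UMIs, with 2 and 1 in control 2. Erg went both ways, with 0 and 20.4 CPM in control 1 and 60.6 and 0 CPM in control 2. Nrarp had 1 thinned UMI on each side. Il2ra took part in naming the DN cluster, and these values are a description.

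Across the 24 sums of 6 stages and 4 libraries, the members fell into a tight group and 2 outsiders. Pearson correlations of log2(CPM + 5) among Hes1, Erg and Mpzl2 were 0.986 to 0.994, and Notch1 correlated with Notch3 at 0.953, whereas Dtx1 and Nrarp stood at -0.05. The sums share libraries and stages, and no p is attached. Of the 7343 genes that reached 20 CPM in at least 4 sums and were not on the pathway list, those most like Hes1 were Epb41l4b, Bst1 (the surface enzyme CD157) and Ifitm2 (r = 0.995, 0.994 and 0.994). Notch1 was closest to Rab44 (r = 0.970), Gfra1 (0.964) and Camkv (0.960), and Notch3 to Prss57, Tenm1 and Smim5 (0.982, 0.980 and 0.979). Erg was closest to H19, Cpa3 and Gm19696 (0.996, 0.995 and 0.994), and Mpzl2 to Bst1, Rab44 and Cpne2 (0.989, 0.988 and 0.988). Dtx1 was followed by Rps24 (0.960), a ribosomal protein gene, Gm12216 (0.95) and Lgals3bp (0.947). Nrarp, which like Erg did not reach the 20 CPM minimum itself, was followed by Chtf18 (0.936), Dnmt1 (0.933) and Brca2 (0.933), which act on replicating or broken DNA.

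The genotypes were compared within each stage to ask whether Tox4 deletion went with changed Notch gene expression. In cKO libraries Notch1 rose in DPbla cells 1.47-fold and in DPre cells 1.87-fold, and Notch3 rose in DPre cells 2.02-fold. No member was called in DN, DPsel, CD4SP or CD8SP cells. Summed UMI counts were tested over all genes with edgeR's quasi-likelihood test, with Benjamini-Hochberg adjustment within a stage and a call at adjusted p under 0.05, on 2 libraries per group. The labels give each library a replicate number and no animal, so p-values measure the spread between these libraries. The study speaks of pairs of control and cKO mice without saying which libraries form one, and the calls given here come from a fit without pairs. With the replicate number as a block more genes were called, 10.7% in DPbla, 9.2% in DPre and 2.76% in DPsel cells, and 3, 4 and 2 of the members.

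In DPre cells, 6 of the 7 members passed the filter on low counts and 2 were called, where 1.26% of the 11704 genes tested were called. Notch1 was at 68.2 and 56.5 CPM in the controls and at 118 and 108 CPM in the cKO libraries, without overlap. Its log2 fold change was 0.90 (SE 0.12, edgeR adjusted p = 0.00280), and it stayed between 0.78 and 1.15 with every one of 14 alternatives, each of which kept the call. Notch3, with 11 and 14.8 against 23.9 and 27.2 CPM, did not overlap either, and its log2 fold change was 1.01 (SE 0.17, edgeR adjusted p = 0.0114). That call was lost with a mitochondrial limit of 5% (log2 0.92, edgeR adjusted p = 0.108) and kept with the other 13 alternatives. Hes1 was the third gene without overlap, 1.54 and 0.78 CPM against 3.45 and 2.29 CPM (log2 1.37, SE 0.42, edgeR adjusted p = 0.138), at levels read as background above. It was called without control 1 (log2 1.86, edgeR adjusted p = 0.0374), without the filter (edgeR adjusted p = 0.0180) and with the replicate block (edgeR adjusted p = 0.00739), and fell to 0.91 without control 2 (edgeR adjusted p = 0.493). Groups did not overlap for 46.7% of all genes tested in DPre cells, so this alone sets no gene apart.

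In the thinned shares of DPre cells, both cKO libraries again stood above both controls for Notch1 and Notch3. Notch1 was found in 6.70% (5.80 to 7.69) and 5.64% (4.99 to 6.35) of DPre cells in the controls and in 9.96% (8.90 to 11.1) and 9.56% (8.81 to 10.4) in the cKO libraries. The Notch1 share of MPS cells was 3.41% (0.709 to 9.64) in control 1, 0 of 118 cells (0 to 3.08) in control 2, 1.91% (0.396 to 5.48) in cKO 1 and 7.28% (4.13 to 11.7) in cKO 2, and overlapped between the genotypes. Notch3 was found in 1.08% and 1.26% of DPre cells in the controls and in 2.46% and 2.32% in the cKO libraries, with intervals that did not overlap between the genotypes. These intervals cover counting error in cells and not the spread between libraries. The shares were drawn from the same UMIs as the levels tested above. The Notch3 level of MPS cells was 3.92 and 7.62 CPM in the controls and 10.1 and 19.3 CPM in the cKO libraries, also without overlap, and that of Hes1 was 3.92 and 5.08 against 20.2 and 14.5 CPM. The Notch1 level of B cells was 24.8 and 32.4 CPM in the controls and 44.8 and 48.5 CPM in the cKO libraries. These B cell values did not overlap either and rested on 25 UMIs in all. The part of these backgrounds in the Notch1, Notch3 and Hes1 values of DPre cells was not tested.

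Markers of other stages and cell types moved with the genotype in DPre cells. The 8 DPbla markers, all detected in every library, summed to 180 to 250 CPM in controls and 309 to 353 CPM in cKO libraries. In DPre cells without a UMI of any of these 8 markers, a setting chosen after the data were seen, Notch1 was higher by 0.87 (SE 0.12, edgeR adjusted p = 0.00104) and Notch3 by 1.03 (SE 0.21, edgeR adjusted p = 0.0241) on the log2 scale. Median depths of DPre cells were 2204.5 to 3088.5 UMIs, so a cell without such a UMI can still hold RNA of these markers. The 5 DN markers, all detected in every library as well, summed to 22.8 to 27.1 CPM in controls and 34.5 to 43.8 CPM in cKO libraries, a difference of 14.2 CPM between the group means. Notch1 differed by 50.7 CPM and Notch3 by 12.7 CPM between the group means of DPre cells, and Hes1 by 1.71 CPM. Without overlap as well, CD8SP markers summed to 38.7 to 40.4 CPM in controls and 50.0 to 51.9 CPM in cKO libraries, CD4SP markers to 33.5 to 34.6 and 36.3 to 36.4 CPM, MPS markers to 246 to 256 and 259 to 269 CPM, and the 4 erythroid markers, 2 to 4 of them detected, to 12.5 to 16.2 and 22.9 to 31.9 CPM. The part of all these markers in the result, the DPbla and DN markers included, was not tested.

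In DPbla cells, 6 members passed the filter and 1 was called, at a rate of 2.44% over the 10769 genes tested. Notch1 stood at 98.4 and 89.6 CPM in the controls against 127 and 139 CPM in the cKO libraries (log2 0.56, SE 0.11, edgeR adjusted p = 0.0152). The call was lost without cKO 2 (log2 0.49, edgeR adjusted p = 0.144). Notch3 had 14.8 and 14.0 against 20.5 and 20.5 CPM, a log2 difference of 0.56 (SE 0.16, edgeR adjusted p = 0.0846) that missed the threshold. It passed at mitochondrial limits of 5% (log2 1.07, edgeR adjusted p = 0.0462) and 20% (log2 0.84, edgeR adjusted p = 0.0302), with doublets kept and without the filter. Hes1 did not overlap either (log2 0.88, SE 0.42, edgeR adjusted p = 0.323), and its log2 value ran from 0.46 without control 1 to 1.70 without control 2. Such separation was found for 47.6% of genes in DPbla cells. Dtx1, Nrarp and Mpzl2 overlapped between the genotypes. The DN markers summed to 16.5 to 16.9 CPM in controls and 33.7 to 38.3 CPM in cKO libraries in these cells, the erythroid markers to 6.14 to 6.65 and 10.4 to 11 CPM, and the DPre markers to 1557 to 1819 and 1445 to 1494 CPM. The DPbla markers themselves summed to 5999 to 6015 CPM in controls and 5651 to 5849 CPM in cKO libraries. DPsel markers summed to 173 to 189 and 154 to 167 CPM, and γδ T cell markers to 206 to 220 and 173 to 186 CPM. Also without overlap were MPS markers (225 to 256 and 213 to 220 CPM) and endothelial markers (67.1 to 72.7 and 50.6 to 61.4 CPM). Mesenchyme markers summed to 1.23 to 2.14 and 2.51 to 3.43 CPM. The part of all these markers was not tested.

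Within single clusters, a view added after the data were seen, the Notch1 log2 difference was 0.91 (SE 0.13), 0.83 (SE 0.12) and 0.71 (SE 0.36) in the DPre clusters 1, 2 and 10. In cluster 10 the genotypes overlapped, at 59.8 and 84.2 CPM in the controls and 172 and 76.9 CPM in the cKO libraries, from 103 UMIs. The DPbla clusters 7, 8 and 11 gave 0.50 (SE 0.13), 0.57 (SE 0.13) and 0.56 (SE 0.16). In DPsel the value was 0.75 (SE 0.17) in cluster 3, 0.41 (SE 0.18) in cluster 5 and -0.01 (SE 0.24) in cluster 13.

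In DN cells, 6 members passed the filter, none was called, and all 6 log2 values were below 0, between -0.05 for Notch3 and -0.45 for Dtx1. The share called over all 8750 genes tested was 0.0343%. Notch1 did not overlap, with 552 and 518 against 455 and 469 CPM (log2 -0.18, SE 0.10, edgeR adjusted p = 0.772). Dtx1 did not overlap either, with 54.7 and 50.2 against 42.7 and 33.6 CPM (log2 -0.45, SE 0.21, edgeR adjusted p = 0.696). Separation of this kind held for 37.3% of genes in DN cells. The 8 DPbla markers summed to 316 to 398 CPM in DN cells of controls and 647 to 733 CPM in those of cKO libraries, and their part in these values was not tested.

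In the later stages no member passed the test. The rate of calls was 0.065% of 10766 genes in DPsel, 0.193% of 9313 in CD4SP and 0.0233% of 8581 in CD8SP cells. Notch1 in DPsel cells was at 44.6 and 40.4 against 55.8 and 59.7 CPM (log2 0.46, SE 0.13, edgeR adjusted p = 0.268). With the replicate number as a block it was called (edgeR adjusted p = 0.0348), in a fit that called 2.76% of all genes. Notch3 in DPsel cells gave 0.62 (SE 0.37, edgeR adjusted p = 0.730) and Dtx1 1.09 (SE 0.39, edgeR adjusted p = 0.428), again without overlap. Dtx1 in DPsel cells was called without cKO 2 (log2 1.62, edgeR adjusted p = 0.0222), without the filter (edgeR adjusted p = 0.0341) and with the replicate block (edgeR adjusted p = 0.0276), and its log2 value was 0.42 without cKO 1 (edgeR adjusted p = 0.787). In DPsel cells 3 of the 4 members that passed the filter did not overlap, where 38.3% of all genes did not. Notch1 in CD4SP cells, 57.0 and 62.1 against 64.7 and 83.0 CPM, gave 0.28 (SE 0.15, edgeR adjusted p = 0.684), and in CD8SP cells, 52.8 and 58.6 against 74.2 and 77.9 CPM, 0.41 (SE 0.17, edgeR adjusted p = 0.674). Dtx1 in CD8SP cells gave 0.14 (SE 0.18, edgeR adjusted p = 0.929). Of the 2 members that passed the filter in each SP stage, 1 in CD4SP and 2 in CD8SP did not overlap, beside 38% and 37.5% of all genes.

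**Figure D4:**
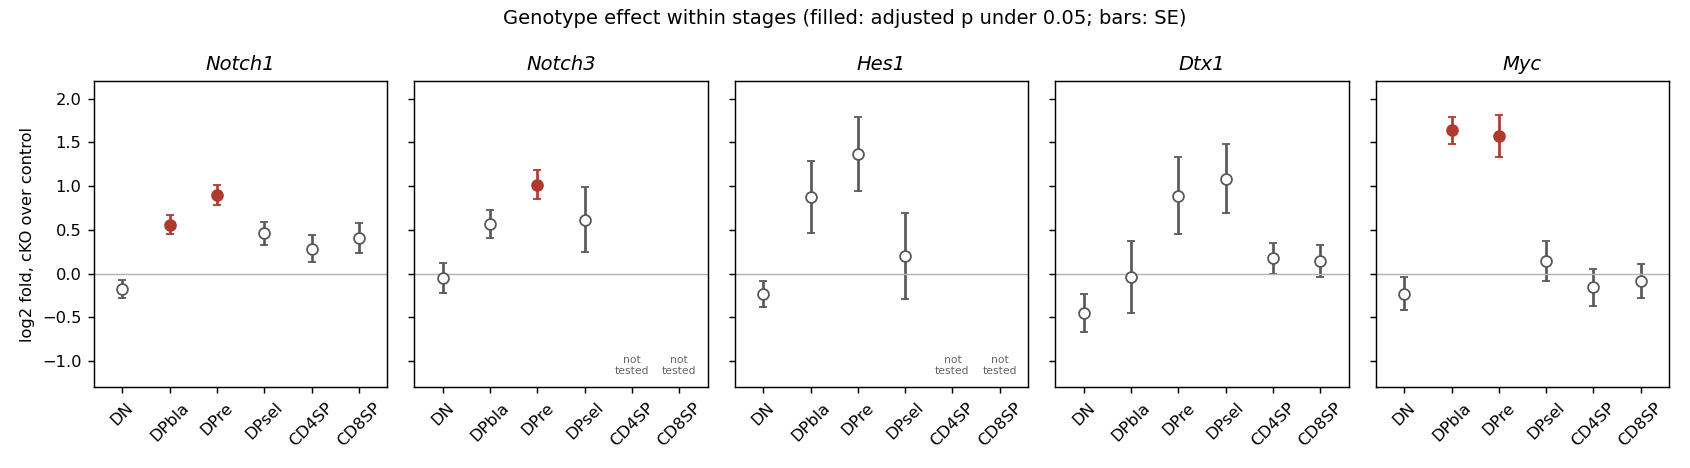
Log2 fold change of cKO over control (vertical axis) for Notch1, Notch3, Hes1, Dtx1 and Myc in 6 stages (horizontal axis), from edgeR on 2 libraries per genotype; error bars are SE, filled red points passed the test and open points did not. Notch1 is filled in DPbla and DPre, Notch3 in DPre, and Myc in both, and the DN points lie below 0.

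Whether the genotype effect differed between neighbouring stages was tested with a stage by genotype term. Between DN and DPbla, the effect on Notch1 was 0.71 higher in DPbla on the log2 scale (SE 0.12, edgeR adjusted p = 3.8e-05), and Notch1 was the one member called of 7 tested, where 1.48% of all genes were. The values for Notch3, 0.57 (SE 0.19, edgeR adjusted p = 0.141), and Hes1, 1.07 (SE 0.36, edgeR adjusted p = 0.131), missed the threshold. Between DPbla and DPre no member was called of 6 tested (0.646% of all genes), with 0.35 for Notch1 (SE 0.11, edgeR adjusted p = 0.154). Between DPre and DPsel none was called of 5 (0.313% of all genes), with -0.45 for Notch1 (SE 0.11, edgeR adjusted p = 0.157). From DPsel to CD4SP (0.0191% of all genes) and to CD8SP (0.00954%) none of 3 members was called. The larger fold in DPre than in DPbla was thus not shown to differ.

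The wider pathway was followed with a list of 51 genes of receptors, ligands, processing enzymes, nuclear partners, inhibitors and targets. Notch2, a receptor of B and myeloid cells, was between 5.38 and 18.3 CPM in every stage and library, and Notch4 was at 1.52 CPM or less. The 5 ligands were low, with a stage mean of at most 4.96 CPM, for Jag2 in DPre cells. Rbpj, the DNA-binding partner, had stage means between 30.5 and 59.2 CPM, with DPre highest. Lfng, a glycosyltransferase that tunes the binding of Delta ligands, was at 14.6 to 22.8 CPM in DN cells, at 2.69 CPM or less in DPbla and DPre cells, and at 94.0 to 114 CPM in CD4SP cells. Its course was like that of Dtx1, low in the middle and high at the end. Ptcra, the pre-T cell receptor α chain and a Notch target, fell from 199 to 328 CPM in DN cells to 61.1 to 113 CPM in DPbla and to 10.2 CPM or less from DPsel on.

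By genotype, the list held 40 tested genes in DPbla cells, of which 2 rose and none fell, and 42 in DPre cells, of which 3 rose and none fell, where 2.44% and 1.26% of all genes were called in either direction. In the other 4 stages none of the 33 to 38 tested list genes was called. Besides the receptors, the gene called was Myc, a growth regulator and Notch target. It was at 18.0 and 13.2 CPM in the controls and at 44.5 and 47.8 CPM in the cKO libraries in DPbla cells (log2 1.64, SE 0.15, edgeR adjusted p = 0.000212). In DPre cells it was at 10.7 and 9.62 against 38.1 and 21.3 CPM (log2 1.57, SE 0.24, edgeR adjusted p = 0.00684). The groups did not overlap in either stage. Myc did not overlap in MPS cells either, at 15.7 and 5.08 CPM in the controls against 30.3 and 19.3 CPM in the cKO libraries. In B cells it was at 0 and 0 against 59.7 and 37.7 CPM, from 15 UMIs in all. The part of this background in the Myc values of DPbla and DPre cells was not tested. Median log2 over the list was -0.03 in DPbla and -0.08 in DPre cells, beside -0.0033 and 3.5e-05 over all genes tested, and the list had 17 positive values of 40 in DPbla and 18 of 42 in DPre cells. Ptcra gave no call in any stage.

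**Figure D5:**
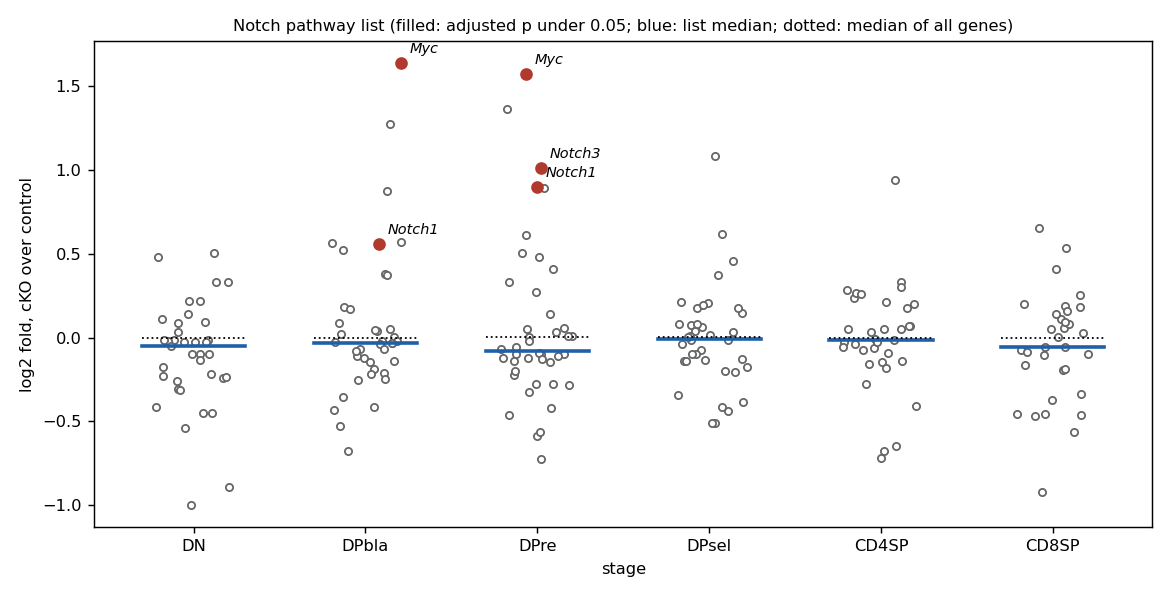
Log2 fold change of cKO over control (vertical axis) of the tested genes of the Notch pathway list in 6 stages (horizontal axis, 33 to 42 genes each); filled red points passed the edgeR test, blue bars are the median of the list and dotted lines the median of all genes. Filled points are Notch1 and Myc in DPbla and Notch1, Notch3 and Myc in DPre, while the blue bars stay within 0.1 of 0.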

How the data were processed

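Thymocytes of 2 control and 2 cKO mice were profiled with a 10x Chromium 3′ kit. The deposited values are UMI counts per gene and cell, which the authors made with Cell Ranger 6.1.1 on mm10 per the labels, already restricted to called cells. Cells with under 200 genes, in the outer 2.5% of UMI totals, with over 10% mitochondrial UMIs or in the top 5% of doublet scores were left out. For the other cells, 3000 variable genes were ranked with scanpy 1.11.5, without the 7 genes and the pathway list (Il2ra excepted). Values were centred within each library. The cells were clustered with leidenalg 0.10.2 on a shared-neighbour graph of 30 components at resolution 1. The clusters were named from marker lists with thresholds set after the clusters had been seen. The study's own cell annotation was not used here, so the names are rebuilt.

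UMI counts were summed per library and stage and tested with edgeR 4.0.16 (TMM, filterByExpr, quasi-likelihood) over all genes, on 2 residual degrees of freedom, and with DESeq2 1.42.0 as an alternative. The difference of the genotype effect between stages was an interaction term with library as a block. The edgeR genotype and interaction fits were tried on simulated counts with known fold changes, and the DESeq2 alternative was not. Detection shares carry exact binomial 95% intervals. The members and lists were chosen with earlier results of these data known. All members are given by level, with fold, SE and adjusted p where a member was called or its groups did not overlap. From the list, called genes, receptors, Ptcra, Myc, Rbpj and Lfng are named, and for each member the 3 genes with the highest r.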

Additional observations from a re-analysis of the deposited data

Results flagged for a closer look

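For 4 genes of the pathway list, the genotype effect differed between neighbouring stages in the interaction test (edgeR, adjusted over all genes). Called were 4 of 43 tested list genes between DN and DPbla (1.48% of all genes) and 1 of 42 between DPre and DPsel (0.313%). Between DPsel and CD4SP it was 1 of 37 (0.0191%). None was called of 42 between DPbla and DPre (0.646%) and of 36 between DPsel and CD8SP (0.00954%). The effect on Notch1 was 0.71 higher on the log2 scale in DPbla than in DN cells (edgeR adjusted p = 3.8e-05), and 0.68 to 0.77 higher with a library left out. For Myc the effect was 1.84 higher in DPbla than in DN cells (edgeR adjusted p = 2.05e-12). It was lower in DPsel than in DPre cells, by -1.44 (edgeR adjusted p = 0.000188).

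Ccnd3, which encodes cyclin D3, gave -0.55 between DN and DPbla (edgeR adjusted p = 0.0114), with 1611 and 1422 CPM in DPbla cells of the controls against 1154 and 1013 CPM in the cKO libraries. Its adjusted p ran from 0.000991 to 0.888 over the alternatives, the highest without cKO 2. Il2ra gave 1.33 between DN and DPbla (edgeR adjusted p = 0.0488), with adjusted p up to 0.380 when a library was left out. Il2ra was a naming marker of DN cells and was not left out of clustering, so its DN and DPbla values depend on the naming. Between DPsel and CD4SP Il2ra gave 3.12 (edgeR adjusted p = 0.0104). Without cKO 1, whose CD4SP cells held 13.7 CPM beside 0.87 to 3.40 CPM in the other libraries, that value was 2.34 (edgeR adjusted p = 0.999).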

How the results depend on the processing

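Without the filter on low counts, members called numbered 2 in DPbla and 1 in DPsel, and list genes called 6 in DPbla, 5 in DPre and 1 in DPsel, where 3.6%, 3.1% and 0.913% of all genes were called. At a mitochondrial limit of 5%, 2 members were called in DPbla and 1 in DPre, and 2 were called in DPbla at a limit of 20% and with doublets kept (1.28%, 0.937%, 2.45% and 2.59% of all genes). With the replicate block, members called numbered 3 in DPbla, 4 in DPre and 2 in DPsel, and list genes 6, 8 and 2, where 10.7%, 9.2% and 2.76% of all genes were called. Deviations of same-numbered libraries correlated at 0.05 to 0.24 over genes, and the share of cells over the mitochondrial limit was 48.3% and 46.1% in the libraries numbered 1 and 20.6% and 23.1% in those numbered 2. With 2 pairs and no label that ties a number to a litter or day, whether the numbers pair the mice is not settled. With a library left out, members called ranged from 0 to 2 in DPbla (0 without cKO 2, where 0.239% of all genes were called), 2 to 4 in DPre and 0 to 1 in DPsel, and list genes from 1 to 4, 4 to 6, 0 to 1 and, in CD4SP, 0 to 1. Members with a called difference ranged from 1 to 2 between DN and DPbla and from 0 to 1 between DPbla and DPre.

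Notch1 in CD4SP turned to -0.15 at the 5% limit. Dtx1 in CD8SP ran from -0.016 (without cKO 1) to 0.26 with a library left out, and was -0.29 in cells without a UMI of the DPbla markers, a setting chosen after seeing the data. Mpzl2 exceeded DPre by 5.52 in DN cells at the 20% limit. Unthinned, the shares of DN cells with a UMI were 91.8% for Notch1, 56.8% for Notch3, 65.3% for Hes1, 22.9% for Dtx1, 2.2% for Nrarp, 14.0% for Erg and 34.7% for Mpzl2. The cause of these changes was not tested. The 5% limit left 3, 9, 25 and 49 DN cells, under the minimum of 30 in 3 libraries, and gave no DN value. With 2 libraries per genotype and 14 Nrarp UMIs in DN cells, small differences were not detectable at this depth.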

Other observations

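Outside the 6 stages, cluster 18 (246 cells, left unnamed) was led by Maf, Tcrg-C2 and cytotoxic genes such as Gzma and Nkg7, and held 724 CPM of Trdc, the constant chain of the δ T cell receptor. Its pooled Hes1 level was 23.7 CPM, from 9 and 3 UMIs in the controls and 4 and 31 UMIs in the cKO libraries, so that most came from cKO 2. Nrarp stood at 10.1 CPM there, from 3, 10, 3 and 4 UMIs in control 1, control 2, cKO 1 and cKO 2. Notch1 was at 52.0 CPM in these cells.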
